A study of Mus musculus with 24 samples.

Results

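The genes described here encode the receptor through which macrophages sense IL-4, the kinases and the adaptor bound to it, and inhibitors that switch it off. They were chosen by name: Il4ra, Il13ra1, Il2rg, Jak1, Jak3, Tyk2, Irs2, Cish, Socs1 and Socs3. A probe set, the group of oligonucleotides that measures one transcript on the array, was taken where the platform annotation gave it a single gene symbol from this list. Of 10 genes, 9 were measured by 20 of the 45037 probe sets tested, which cover 18193 genes in all. Il2rg, the common gamma chain, was not analysed here, and 2 probe sets that name Jak3 together with another gene were not used.

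IL-4 binds the IL-4 receptor alpha chain (Il4ra), which then pairs either with the common gamma chain or with the IL-13 receptor alpha 1 chain (Il13ra1), the partner that also lets the complex bind IL-13. JAK1 sits on the alpha chain, JAK3 on the gamma chain and TYK2 on IL-13 receptor alpha 1, and these kinases phosphorylate the receptor, the transcription factor STAT6 and the adaptor IRS-2. CIS (the product of Cish), SOCS1 and SOCS3 belong to the SH2 family of cytokine-induced inhibitors, which bind receptors or kinases and damp the signal that induced them.

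Bone marrow-derived macrophages, grown from femoral marrow with M-CSF at 20 ng/ml, came from 3 Stat6 knockout (KO) mice, numbered 4, 5 and 6, and 3 wild-type (WT) mice, numbered 1, 2 and 3, all C57Bl/6. Each mouse gave 4 cultures, with IL-4 at 20 ng/ml or without it (control), and with 1 µM Rosiglitazone (RSG), a drug that activates the nuclear receptor PPARγ, or its vehicle of DMSO and ethanol. The 8 groups were thus KO IL4 RSG, KO IL4 vehicle, KO control RSG, KO control vehicle, WT IL4 RSG, WT IL4 vehicle, WT control RSG and WT control vehicle, each with 3 arrays, and M-CSF was present in all of them over 10 days. The KO mice lack Stat6 in every cell, so cells other than macrophages in a culture lack it too, and the ages of the mice were not given in the sources used here. The study asked how IL-4 and STAT6 alter what a PPARγ ligand does to macrophages, and the design lets the same arrays show what IL-4 does to its own receptor with and without STAT6.

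Each value is a log2 ratio to the median of that probe set over the 24 arrays. It gives no absolute level, so probe sets are not compared in level, and how many arrays there are sets the precision. Values by array are given in the order of mice 4, 5 and 6 for KO and 1, 2 and 3 for WT. A change is a difference between 2 group means of log2 ratios, given ± its SE in the limma fit over all arrays (3 per group), and a change was called at a Benjamini-Hochberg adjusted p under 0.05 over all probe sets with at least a 1.5-fold change.

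The arrays matched their genotype labels. On the Stat6 probe set 1421708_a_at the 12 KO arrays lay between -2.03 and -1.56 and the 12 WT arrays between 0.73 and 1.15, though where this probe set lies relative to the deletion was not examined. Macrophage markers (9 genes measured) averaged 0.04 in KO IL4 vehicle, 0.16 in KO control vehicle, -0.61 in WT IL4 vehicle and 0.25 in WT control vehicle arrays, but as ratios they cannot show whether a marker was absent. With IL-4 and vehicle 1 of the 9 was called higher and 3 lower in KO, and 1 higher and 4 lower in WT. Lists of other cells moved with IL-4 in KO. Mast cell and basophil markers averaged 5.2 in KO IL4 vehicle (4.91 to 5.48), -0.68 in KO control vehicle, -0.23 in WT IL4 vehicle and -0.49 in WT control vehicle arrays. Neutrophil and granule precursor markers averaged 3.57 (3.44 to 3.82), 0.04, -3.84 and -0.01 in those 4 groups, and lymphocyte markers averaged 3.95 (3.79 to 4.19), -1.87, 0.16 and -0.66. Interferon response genes averaged 3.77 (3.47 to 3.96), -0.35, -1.23 and 0.01. With IL-4 and vehicle, 9 of 10 mast cell, 10 of 10 neutrophil, 7 of 7 lymphocyte and 10 of 10 interferon genes rose in KO, whereas in WT 8 of 10 neutrophil and 6 of 10 interferon genes fell. Of all probe sets, 4.25% were called higher in KO and 5.94% lower in WT. Each marker gene, macrophage markers included, was read on its probe set with the largest SD over these arrays. The means and counts of the lists are therefore descriptions only. In these bulk cultures a smaller share of a cell type and less RNA per cell cannot be told apart. What other cells contribute to the values of any member or pathway gene below was not tested. Stromal markers stood highest on 2 arrays, those of mouse 6 in KO control RSG (5.22) and of mouse 2 in WT control vehicle (3.14), called stromal-high below. In WT control vehicle, mouse 3 lay above the other 2 mice for mast cell (0.99) and lymphocyte (0.73) markers.

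**Figure D1:**
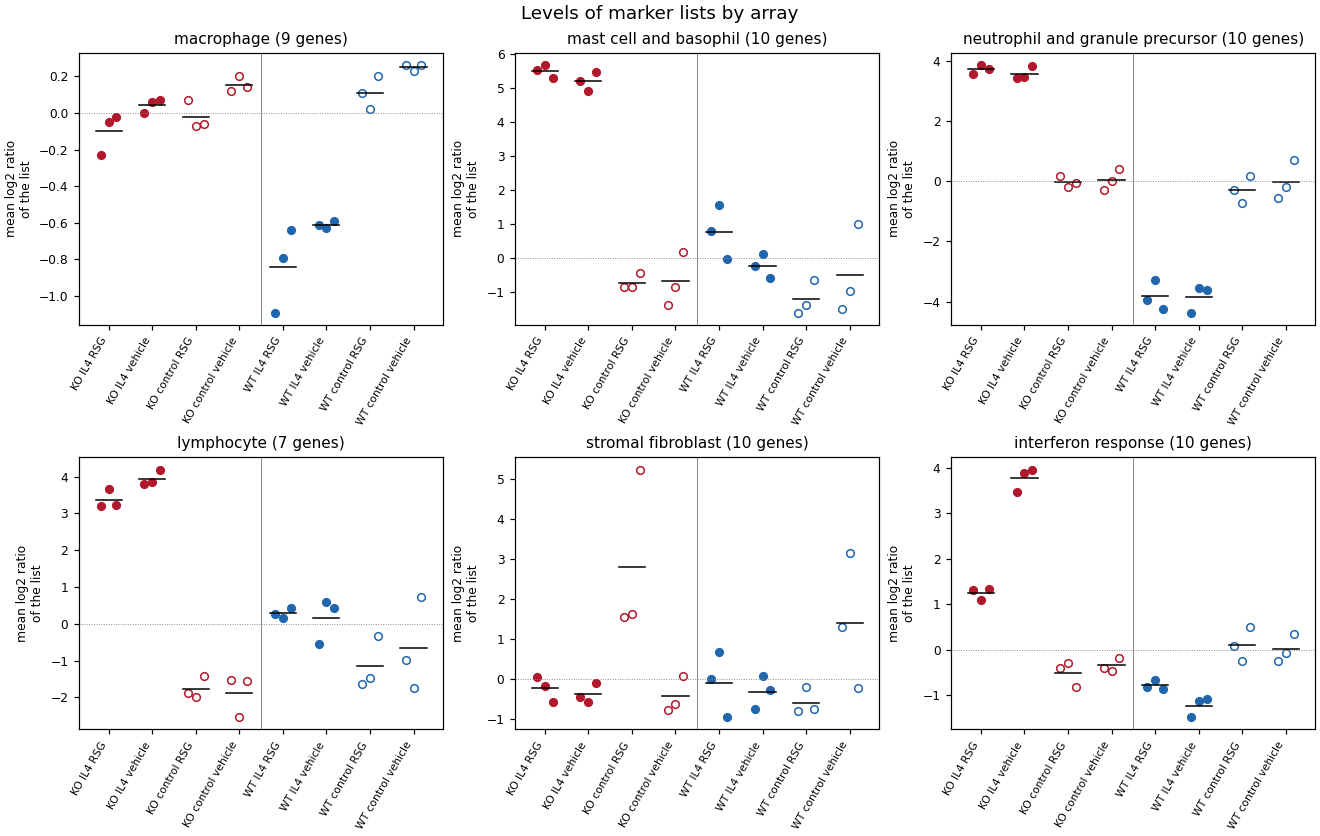
Mean log2 ratio of each marker list (y axis, each gene against its own median over the arrays) on every array, by group (x axis). Points are single arrays, black lines group means, filled points IL-4 and open points control, red KO and blue WT. The KO IL-4 arrays stand apart for mast cell, neutrophil, lymphocyte and interferon genes, and 1 KO control RSG array (mouse 6, 5.22) stands highest for stromal genes.

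Among the 20 probe sets, IL-4 raised the inhibitors Cish and Socs1 in both genotypes, and lowered Socs3 and both receptor chains in WT, while no member was called lower in KO. With IL-4 and vehicle, 7 were called higher and 0 lower in KO, where 4.25% and 7.26% of all probe sets were. At limma's unadjusted p of 0.05, 13 passed there, against 11905 of all 45037 probe sets. In WT 2 were called higher and 10 lower, against 7.01% and 5.94% of all probe sets. The difference between these responses, KO minus WT, was called higher for 9 and lower for 2, against 4.73% and 9.84%. The 10 lower in WT and the 9 higher differences lay on the same few genes, Il4ra, Il13ra1, Jak3 and Socs3. Probe sets of the same gene count separately here and are not independent. With RSG present, 2 were called higher and 0 lower in KO (background 3.19% and 3.64%), 2 higher and 8 lower in WT (7.87% and 5.59%), and the difference was called higher for 9 and lower for 2 (3.69% and 7.5%). Between genotypes in the presence of IL-4, 9 were called higher and 4 lower in KO with vehicle (6.94% and 17.3%), and 9 higher and 3 lower with RSG (5.79% and 14.2%). The median of all probe sets was itself shifted, by -0.14 for the IL-4 response in KO with vehicle, -0.24 and -0.13 for the genotype difference with vehicle and with RSG, and -0.25 and -0.19 for KO against WT with IL-4, while the other comparisons lay within 0.1. With each array centred on its median the vehicle splits were 10 higher and 0 lower for the genotype difference, and 10 higher and 2 lower for KO against WT with IL-4 (9 and 2 after quantile normalization).

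**Figure D2:**
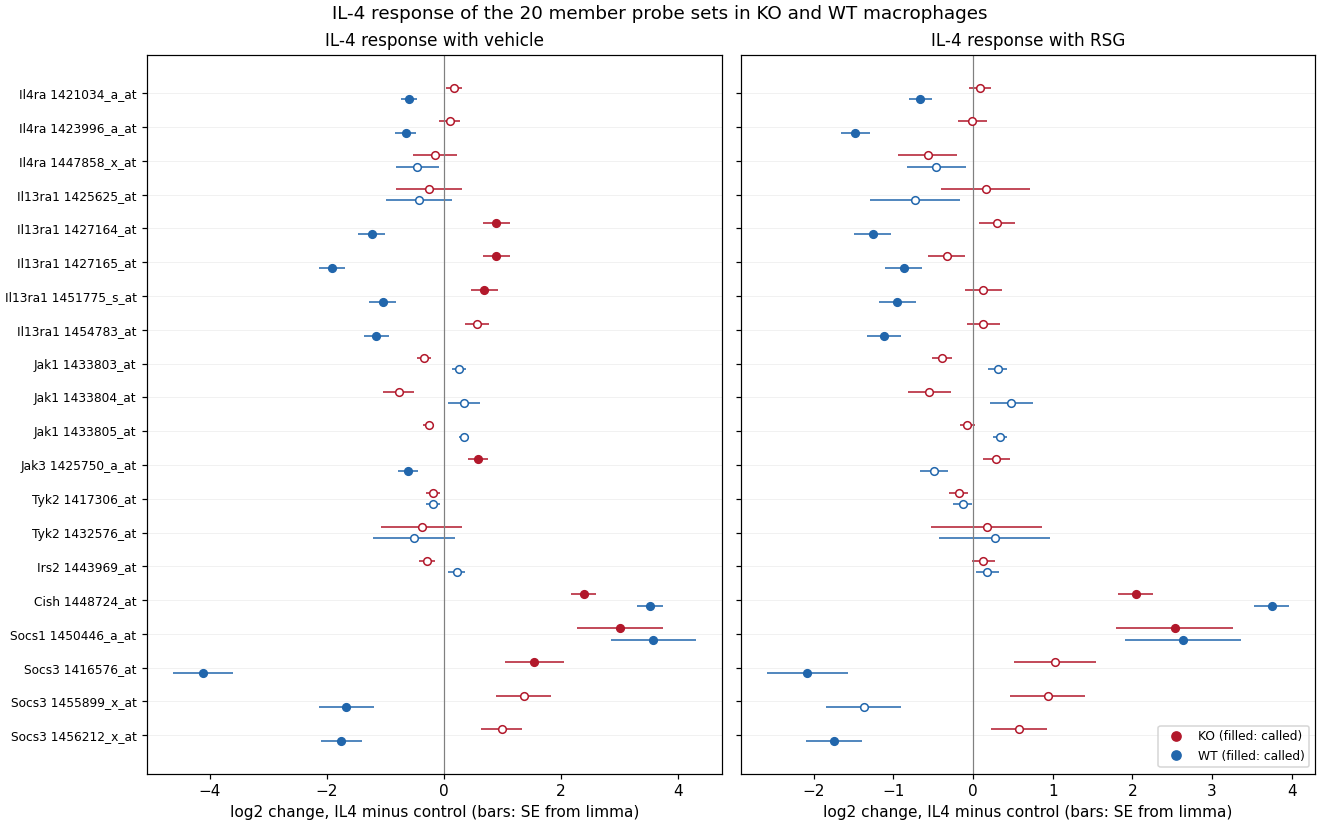
Change with IL-4 (x axis, log2, IL4 minus control, bars SE from limma) of the 20 probe sets (y axis), with vehicle on the left and RSG on the right. Red is KO, blue is WT, and filled points were called. Cish and Socs1 lie to the right of 0 in both genotypes, while with vehicle Socs3 and Il13ra1 lie mostly to the right in KO and to the left in WT.

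Il4ra, the ligand-binding chain, was modestly lower after IL-4 in WT cultures and no change was called in KO cultures. On 1423996_a_at the KO arrays with IL-4 and RSG read -0.24, 0.10 and 0.03, against 0.02, -0.30 and 0.20 in KO control RSG. The same probe set read -0.88, -1.39 and -1.16 in WT IL4 RSG and 0.46, 0.04 and 0.52 in WT control RSG. The KO arrays overlapped and the WT arrays did not. The IL-4 change with RSG was -0.01 ± 0.18 in KO and -1.48 ± 0.18 in WT (adjusted p = 1.18e-05), and the difference of 1.47 ± 0.26 was called (adjusted p = 0.000917). With vehicle it read 0.07, -0.17 and 0.17 in KO IL4, -0.02, -0.11 and -0.10 in KO control, -0.69, -0.17 and -0.42 in WT IL4 and 0.29, 0.36 and 0.02 in WT control. The smaller WT change of -0.65 ± 0.18 was called (adjusted p = 0.0184), while the genotype difference of 0.75 ± 0.26 was not (adjusted p = 0.0576).

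A separate Il4ra probe set, 1421034_a_at, read 0.13, 0.11 and 0.34 in KO IL4 vehicle, 0.04, 0.01 and -0.01 in KO control vehicle, -0.32, -0.50 and -0.58 in WT IL4 vehicle and 0.17, 0.23 and -0.05 in WT control vehicle. Its KO change was 0.18 ± 0.14 with vehicle and 0.09 ± 0.14 with RSG, its WT change -0.59 ± 0.14 and -0.66 ± 0.14, and the differences of 0.77 ± 0.20 and 0.75 ± 0.20 were both called (adjusted p = 0.0135 and 0.0201). The 1447858_x_at probe set, which varied most over the arrays, was called in none of the 14 comparisons. It read 0.68, 0.10 and -0.43 in KO IL4 vehicle and -0.08, 0.50 and 0.39 in KO control vehicle, and 0.17, -0.54 and -0.78 in WT IL4 vehicle and 0.08, -0.04 and 0.17 in WT control vehicle, with overlapping arrays in each pair. Some calls on these small changes were lost without single mice, while on 1423996_a_at the WT decrease with RSG and the genotype difference with RSG were called under every alternative run. With vehicle the WT call of 1423996_a_at was lost without mouse 1 (-0.49, adjusted p = 0.191) or mouse 3 (0.0572) or the stromal-high arrays (-0.58, 0.0732), and that of 1421034_a_at without mouse 2 (-0.52, 0.105) or the stromal-high arrays (-0.53, under the fold minimum). With RSG that of 1421034_a_at was lost without mouse 1 (0.059). The genotype difference of 1421034_a_at was lost without mouse 2 or 6 with vehicle (0.0861 and 0.0789) and without mouse 1, 3 or 5 with RSG (0.105, 0.0944 and 0.151).

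Il13ra1, the partner chain of Il4ra that binds IL-13, moved in opposite directions in the 2 genotypes when IL-4 was given with vehicle. With RSG the WT decrease was called and no KO change was. On 1427164_at, the probe set of this gene with the largest spread, KO arrays read 0.67, 0.97 and 1.11 with IL-4 and vehicle, against -0.17, 0.16 and 0.05 in KO control vehicle. WT arrays read -1.28, -1.08 and -0.94 with IL-4 and vehicle, against 0.26, 0.16 and -0.05 in WT control vehicle. All KO IL-4 arrays lay above, and all WT IL-4 arrays below, every control vehicle array. The change was 0.90 ± 0.23 in KO (adjusted p = 0.0125) and -1.23 ± 0.23 in WT (adjusted p = 0.00104), and the difference was 2.13 ± 0.33 (adjusted p = 0.000204).

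Of the 5 Il13ra1 probe sets, 3 rose with IL-4 in KO with vehicle, by 0.69 ± 0.23 to 0.90 ± 0.23, and 1454783_at changed by 0.57 ± 0.21 without a call (adjusted p = 0.0812). With RSG the KO changes of these 4 probe sets were 0.30 ± 0.23 (1427164_at, adjusted p = 0.529), -0.33 ± 0.23 (1427165_at, 0.473), 0.13 ± 0.23 (1451775_s_at, 0.82) and 0.13 ± 0.21 (1454783_at, 0.808), none of them called. In WT 4 fell, with changes of -1.91 to -1.04 with vehicle and of -1.26 to -0.87 with RSG on the log2 scale. The genotype difference was called for 4 with vehicle, at 1.72 to 2.81, and for 3 with RSG, at 1.08 to 1.55. The fifth, 1425625_at, read 0.84, -2.08 and 0.11 in KO IL4 vehicle and -1.27, 0.17 and -0.54 in WT IL4 vehicle and was never called. The KO increase was less firm than the WT decrease: on 1427164_at the KO call was lost without mouse 4, 5 or 6 (adjusted p = 0.0682, 0.0748 and 0.0753), on 1427165_at without mouse 5 or 6 (0.0662 and 0.0679), and on 1451775_s_at without mouse 1, 2, 3, 5 or 6 (0.0725 to 0.305). On the compared arrays alone the KO calls of 1427164_at, 1427165_at and 1451775_s_at were lost too (adjusted p = 0.0559, 0.081 and 0.234). By the t-test of the study's methods they were also lost (adjusted p = 0.0561, 0.0936 and 0.278). In WT with vehicle only the call of 1451775_s_at was lost, without mouse 2 (0.0609). With RSG the WT call was lost on 1427165_at without mouse 2 or 3 (0.184 and 0.0532) and on 1451775_s_at without mouse 1, 2 or 3 (0.0647, 0.0719 and 0.055). On 1427164_at and 1454783_at it was lost on the compared arrays alone (0.0697 and 0.0552). The t-test of the study's methods lost these calls too (0.0964 and 0.0698). The genotype difference with RSG was lost on 1427164_at without mouse 3 (0.0501), on 1454783_at without mouse 1, 3 or 5 (0.0606, 0.0806 and 0.0811) and on 1451775_s_at without mouse 1, 2, 3 or 5 (0.118, 0.141, 0.113 and 0.172). The interferon, mast cell, neutrophil and lymphocyte lists rose in the same KO cultures, and their part in the Il13ra1 values was not tested.

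The single call for RSG among the members was on Il13ra1. In KO IL4 cultures 1427165_at read -0.31, -0.39 and 0.03 with RSG, against 0.63, 1.22 and 1.06 with vehicle, a change of -1.19 ± 0.23 (adjusted p = 0.019). The other 3 probe sets that responded to IL-4 in WT changed by -0.66 ± 0.23 (1427164_at), -0.59 ± 0.23 (1451775_s_at) and -0.53 ± 0.21 (1454783_at) without a call (adjusted p = 0.347 to 0.444). Of 10 interferon response genes 10 fell with RSG in the same cultures, whose list mean was 1.25 in KO IL4 RSG (1.09 to 1.33) and 3.77 in KO IL4 vehicle. The call of 1427165_at was lost without mouse 2, 4, 5 or 6 (adjusted p = 0.0743, 0.0879, 0.299 and 0.0944) and after quantile normalization (0.0961). In all, 1 of the 20 probe sets was called for RSG in KO with IL-4 (background 0.515%) and 0 in WT with IL-4 (0.688%), in KO control (0.138%) and in WT control (0.118%). At limma's unadjusted p of 0.05, 4, 3, 0 and 2 of the 20 passed in those 4 comparisons. Of all 45037 probe sets, 3841, 4060, 3608 and 3406 passed. The methods' t-test called 0 of the 20 in each comparison after adjustment.

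**Figure D3:**
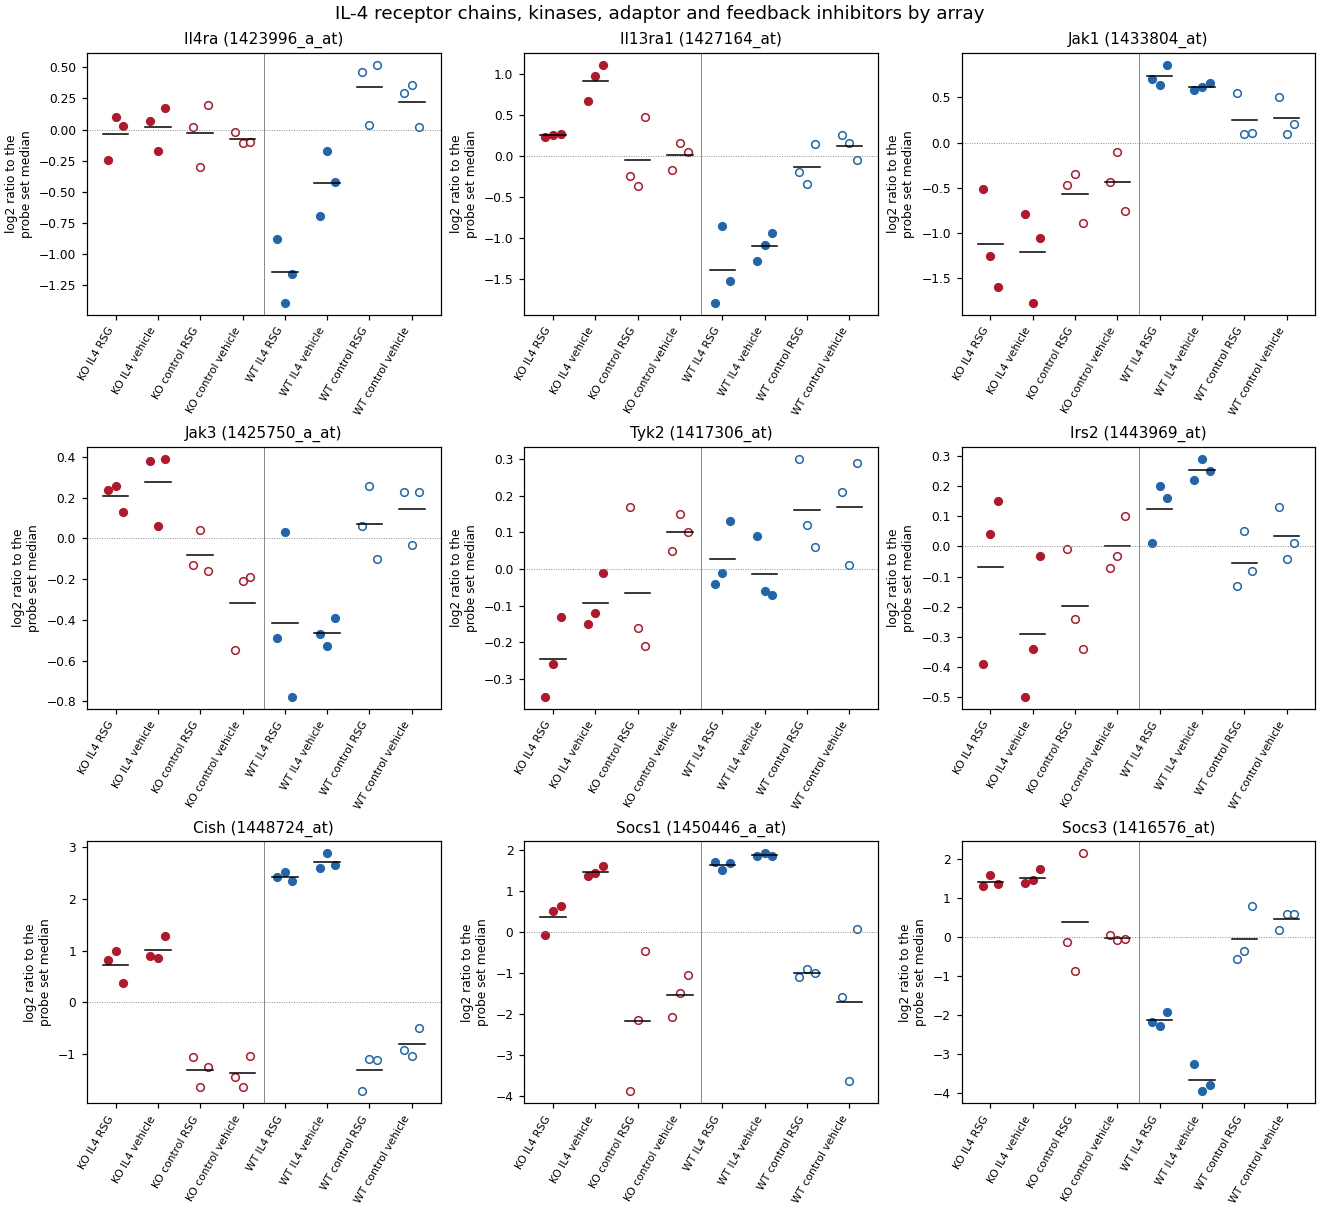
Log2 ratio to the probe set's median (y axis) on each of the 24 arrays, by group (x axis), for 1 probe set of each measured gene. Points are single arrays, black lines group means, filled points IL-4 and open points control, red KO and blue WT. Socs3 lies between 1.30 and 1.74 on the KO IL-4 arrays and between -3.95 and -1.93 on the WT IL-4 arrays, while Cish is above 0 on all IL-4 arrays and below 0 on all control arrays.

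Jak1, the kinase of the alpha chain, was lower in KO than in WT cultures when IL-4 was present. On 1433804_at KO arrays read -0.79, -1.77 and -1.05 with IL-4 and vehicle, against 0.58, 0.62 and 0.66 in WT IL4 vehicle. In control vehicle they read -0.44, -0.10 and -0.75 in KO, against 0.51, 0.10 and 0.21 in WT. The KO arrays lay below the WT arrays in each pair, but the control difference of -0.70 ± 0.27 was not called (adjusted p = 0.42), and that with RSG, -0.83 ± 0.27, was not either (0.303). With IL-4 the difference was -1.82 ± 0.27 with vehicle (adjusted p = 4.1e-05) and -1.85 ± 0.27 with RSG (4.82e-05), a value that includes the shift of all probe sets given above. The IL-4 change on this probe set was -0.77 ± 0.27 in KO and 0.35 ± 0.27 in WT, and neither it nor the genotype difference of -1.12 ± 0.38 (adjusted p = 0.0553) was called. With the mouse as a replicate block that difference was called (adjusted p = 0.047), as it was without mouse 4 (0.0272) or mouse 6 (0.0391).

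The other Jak1 probe sets showed the same order at a smaller size. 1433803_at was lower in KO with IL-4 by 0.78 with vehicle and by 0.86 with RSG, and 1433805_at by 0.69 with vehicle (each called, differences of log2 ratios), while its difference of -0.57 ± 0.09 with RSG stayed under the 1.5-fold minimum. With each array centred on its median, 1433803_at and 1433805_at were at -0.57 and -0.47 with vehicle and no longer called, and after quantile normalization at -0.47 and -0.37. The genotype difference in the IL-4 response was called for 1433805_at with vehicle (-0.61 ± 0.13) and for 1433803_at with RSG (-0.70 ± 0.17). After quantile normalization these were at -0.34 (adjusted p = 0.0645) and -0.57 (0.052). The first was also lost without mouse 3 (-0.57) or mouse 4 (-0.58), whose changes lie under the fold minimum, and the second without mouse 1, 2, 3 or 4 (adjusted p = 0.0577, 0.0746, 0.0626 and 0.0588).

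Jak3, the kinase of the gamma chain, moved like Il13ra1 but less. It read 0.38, 0.06 and 0.39 in KO IL4 vehicle, -0.55, -0.21 and -0.19 in KO control vehicle, -0.47, -0.53 and -0.39 in WT IL4 vehicle and 0.23, -0.03 and 0.23 in WT control vehicle. With IL-4 the KO arrays rose by 0.59 ± 0.17 (adjusted p = 0.0252) and the WT arrays fell by 0.61 ± 0.17 (0.0205), with no overlap in either pair. The difference of 1.20 ± 0.24 was called (adjusted p = 0.00224) and was kept without any single mouse, while the KO call was lost without mouse 1, 4, 5 or 6 (adjusted p = 0.0599, 0.284, 0.0565 and 0.134) and the WT call without mouse 1 or 3 (0.166 and 0.0679). With RSG the difference was 0.78 ± 0.24 (adjusted p = 0.0464), at the edge of the threshold: with the mouse as a replicate block its adjusted p was 0.0763, and it was lost without mouse 1, 3, 4, 5 or 6 (0.113 to 0.168). Lymphocyte markers averaged 3.95 in KO IL4 vehicle and -1.87 in KO control vehicle arrays, and 0.16 in WT IL4 vehicle and -0.66 in WT control vehicle arrays. Jak3 is best known from lymphocytes, while the paper cites an earlier report of JAK3 as the main JAK of myeloid cells. The part of lymphocytes in the Jak3 values was not tested.

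Tyk2, the kinase of the Il13ra1 chain, and Irs2, the adaptor that links the receptor to PI3 kinase, were not called in any comparison. Tyk2 read -0.15, -0.12 and -0.01 in KO IL4 vehicle, 0.05, 0.15 and 0.10 in KO control vehicle, 0.09, -0.06 and -0.07 in WT IL4 vehicle and 0.21, 0.01 and 0.29 in WT control vehicle on 1417306_at. The change with IL-4 was -0.19 ± 0.12 in KO (95% interval -0.44 to 0.06) and -0.18 ± 0.12 in WT (-0.43 to 0.07), and the interval of their difference ran from -0.36 to 0.35. The other Tyk2 probe set, 1432576_at, varied more, at 0.20, -1.54 and 0.68 in KO IL4 vehicle and -0.61, -0.28 and -0.63 in WT IL4 vehicle, and bounded nothing closely (difference -1.95 to 2.21).

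Irs2 read -0.50, -0.34 and -0.03 in KO IL4 vehicle, -0.07, -0.03 and 0.10 in KO control vehicle, 0.22, 0.29 and 0.25 in WT IL4 vehicle and 0.13, -0.04 and 0.01 in WT control vehicle. The KO arrays overlapped, the WT arrays did not, and the KO IL-4 arrays lay below the WT IL-4 arrays. KO against WT with IL-4 was -0.54 ± 0.14, with an adjusted p of 0.00747 but less than the 1.5-fold minimum. The IL-4 change was -0.29 ± 0.14 in KO and 0.22 ± 0.14 in WT (difference -0.51 ± 0.20, adjusted p = 0.11).

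Cish encodes CIS, an inhibitor known as an early target of STAT5 downstream of several cytokines. IL-4 raised it in every mouse of both genotypes, and less in KO. KO arrays read 0.89, 0.85 and 1.29 with IL-4 and vehicle, against -1.45, -1.64 and -1.03 in KO control vehicle. WT arrays read 2.59, 2.88 and 2.66 with IL-4 and vehicle, against -0.91, -1.03 and -0.49 in WT control vehicle. All IL-4 arrays thus lay above all control arrays, and the WT IL-4 arrays lay above the KO IL-4 arrays. The change was 2.39 ± 0.22 in KO (adjusted p = 1.26e-06) and 3.52 ± 0.22 in WT (5.41e-09).

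With RSG Cish read 0.82, 0.99 and 0.37 in KO IL4, -1.05, -1.64 and -1.24 in KO control, 2.43, 2.52 and 2.34 in WT IL4 and -1.72, -1.10 and -1.12 in WT control. The change was 2.04 ± 0.22 in KO and 3.75 ± 0.22 in WT. The genotype difference in the response was -1.14 ± 0.32 with vehicle (adjusted p = 0.0195) and -1.71 ± 0.32 with RSG (0.00152). With vehicle it was lost without mouse 1, 2 or 4 (adjusted p = 0.0512, 0.142 and 0.0739), without the stromal-high arrays (0.0635) and with centred arrays (-0.97, 0.0552), whereas with RSG it was called under each of the 14 alternatives run. KO against WT with IL-4 was -1.70 ± 0.22 with vehicle and -1.71 ± 0.22 with RSG (adjusted p = 1.23e-05 and 1.66e-05). In control vehicle it was -0.56 ± 0.22 and not called (0.434). Mast cell and basophil markers averaged 5.2 in KO IL4 vehicle and -0.68 in KO control vehicle arrays, and lymphocyte markers 3.95 and -1.87. In WT IL4 vehicle and WT control vehicle arrays the mast cell and basophil markers averaged -0.23 and -0.49, and the lymphocyte markers 0.16 and -0.66. What these cells contribute to the Cish values was not tested.

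Socs1 encodes an inhibitor that blocks JAK kinases and is known as a target of interferons as well as of IL-4. It rose with IL-4 in both genotypes, and no genotype difference was called. KO arrays read 1.36, 1.44 and 1.60 with IL-4 and vehicle, against -2.08, -1.49 and -1.06 in KO control vehicle. WT arrays read 1.85, 1.91 and 1.84 with IL-4 and vehicle, against -1.59, -3.63 and 0.06 in WT control vehicle. The IL-4 arrays were close together and the control arrays far apart, without overlap between them. The change was 3.01 ± 0.73 in KO (adjusted p = 0.00769) and 3.58 ± 0.73 in WT (0.00178), and their difference of -0.57 ± 1.03 had a 95% interval from -2.73 to 1.59, which holds sizeable differences in either direction.

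With RSG Socs1 read -0.07, 0.50 and 0.63 in KO IL4, -3.89, -2.16 and -0.47 in KO control, 1.71, 1.5 and 1.68 in WT IL4 and -1.11, -0.91 and -1.01 in WT control. The change was 2.53 ± 0.73 in KO (adjusted p = 0.0378) and 2.64 ± 0.73 in WT (0.0156), with a difference of -0.11 ± 1.03 (interval -2.28 to 2.05). All KO IL4 RSG arrays lay below all WT IL4 RSG arrays (-1.28 ± 0.73, not called, adjusted p = 0.236) and below all KO IL4 vehicle arrays (RSG change -1.11 ± 0.73, adjusted p = 0.757). Without the stromal-high arrays the comparison with WT was called (-1.28, adjusted p = 0.031). It was also called on the compared arrays alone (0.0256) and by the methods' t-test (0.0361). On the compared arrays alone the IL-4 call was lost in WT with vehicle (adjusted p = 0.0941) and in KO with RSG (0.264). The methods' t-test lost both of these calls too (0.148 and 0.338). The IL-4 calls were lost without mouse 5 in KO with vehicle (3.05, adjusted p = 0.0863), without mouse 2 in WT with vehicle (2.60, 0.0539), without mouse 1, 4 or 5 in KO with RSG (0.0881, 0.245 and 0.238) and without mouse 1 or 3 in WT with RSG (0.132 and 0.0582). Interferon response genes averaged 3.77 in KO IL4 vehicle and 1.25 in KO IL4 RSG arrays, against -0.35 and -0.50 in KO control vehicle and KO control RSG arrays. They averaged -1.23 in WT IL4 vehicle and -0.78 in WT IL4 RSG arrays, against 0.01 and 0.11 in WT control vehicle and WT control RSG arrays. Their part in the Socs1 values was not tested.

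Socs3 encodes the inhibitor of receptors of the IL-6 family, a known STAT3 target. It had the widest range of the measured genes and moved in opposite directions in the 2 genotypes when IL-4 was given with vehicle. On 1416576_at KO arrays read 1.37, 1.45 and 1.74 with IL-4 and vehicle, against 0.04, -0.08 and -0.04 in KO control vehicle. WT arrays read -3.25, -3.95 and -3.79 with IL-4 and vehicle, against 0.18, 0.60 and 0.58 in WT control vehicle. All KO IL-4 arrays lay above, and all WT IL-4 arrays below, every control vehicle array. The change was 1.55 ± 0.51 in KO (adjusted p = 0.0478) and -4.11 ± 0.51 in WT (1.35e-05), and the difference of 5.66 ± 0.72 (2.74e-05) was the largest among the measured genes.

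With RSG Socs3 read 1.30, 1.58 and 1.36 in KO IL4, -0.12, -0.88 and 2.14 in KO control, -2.17, -2.28 and -1.93 in WT IL4 and -0.57, -0.36 and 0.79 in WT control. Among the KO control RSG arrays that of mouse 6, with the highest stromal markers, read higher than any KO IL-4 array. The KO change was 1.03 ± 0.51 without a call (adjusted p = 0.255), the WT change -2.08 ± 0.51 (0.00706), and the difference 3.12 ± 0.72 (0.00771). Without the stromal-high arrays the KO change was 1.91 and called (adjusted p = 0.0022). The WT IL-4 arrays read higher with RSG than with vehicle by 1.53 ± 0.51, which was not called (0.266) but was without the stromal-high arrays (0.0218) or mouse 6 (0.0499). On the 2 remaining probe sets of the gene the genotype difference was 3.04 ± 0.66 and 2.74 ± 0.50 with vehicle and 2.32 ± 0.66 and 2.33 ± 0.50 with RSG, all called, and KO against WT with IL-4 was called on all 3 probe sets in both arms, at 2.72 to 5.18.

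The call for the rise of Socs3 in KO was less stable than that for its fall in WT. The call on 1416576_at was lost without mouse 1, 2, 3, 4 or 5 (adjusted p = 0.0799, 0.095, 0.069, 0.164 and 0.12), after quantile normalization (0.0638) and with the replicate block (0.0518). 1455899_x_at and 1456212_x_at changed by 1.37 ± 0.47 and 0.99 ± 0.35 without a call (0.0565 and 0.0716), and with the replicate block both were called (0.0355 and 0.047). In WT with vehicle the fall on 1455899_x_at was lost without mouse 1, 2 or 3 (0.158, 0.144 and 0.0546), and with RSG the fall on 1416576_at was lost without mouse 2 or 3 (0.064 and 0.107). The genotype difference with RSG on 1416576_at was lost without mouse 3, 4 or 5 (0.06, 0.0643 and 0.0633), and on 1455899_x_at without mouse 1, 2, 3, 4 or 5 (0.0536 to 0.16). Neutrophil and granule precursor markers moved the same way, averaging 3.57 in KO IL4 vehicle, 0.04 in KO control vehicle, -3.84 in WT IL4 vehicle and -0.01 in WT control vehicle arrays, with 10 of 10 genes higher in KO and 8 of 10 lower in WT after IL-4. Their part in the Socs3 values was not tested.

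Sequences at the starts of the 3 inhibitor genes are shown because these genes had the largest fitted changes among the members with IL-4 and vehicle. RefSeq windows of 300 bases (250 before and 50 after the start, GRCm38.p6) were available for all 9 measured genes. They were searched on both strands for TTC and GAA with any 4 bases between them, the spacing that STAT6 favours, for TTC and GAA with any 3 bases between them, the spacing of other STAT proteins, and for GAAA and GAAA with any 2 bases between them, the core of the interferon response element. The last was added after the Socs1 sequence had been seen, and its matches here overlap none of the others. The capitals below mark the matches.
Cish, chr9:107296589-107296688, plus strand, positions -70 to 30: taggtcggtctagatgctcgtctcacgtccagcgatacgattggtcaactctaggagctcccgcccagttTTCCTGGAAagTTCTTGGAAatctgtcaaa
Socs1, chr16:10785567-10785666, minus strand, positions -130 to -31: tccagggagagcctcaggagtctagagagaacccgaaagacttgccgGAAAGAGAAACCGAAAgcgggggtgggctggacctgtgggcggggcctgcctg
Socs3, chr11:117969467-117969566, minus strand, positions -200 to -101: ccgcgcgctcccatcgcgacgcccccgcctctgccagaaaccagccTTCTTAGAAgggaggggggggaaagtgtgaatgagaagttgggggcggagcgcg

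Cish held 2 matches to the spacing of 3, starting at positions 1 and 12 counted from the annotated start, and Socs3 held 1, at -154. It was present in 2 of the 9 windows and in 8.3% of 32851 windows of the same length. The spacing of 4 was present in 0 of the 9 and in 6.95% of all. The interferon element core was present in 1 of the 9, with 2 overlapping matches in Socs1 at -83 and -77, and in 3.44% of all. A match describes these letters only, and the arrays did not measure binding.

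Without IL-4, no member was called between genotypes. In control vehicle 0 of the 20 probe sets were called between KO and WT (background 0.109%) and in control RSG 0 (0.0999%). At limma's unadjusted p of 0.05, 4 and 1 passed, against 4144 and 4297 of all 45037 probe sets. By the methods' t-test 0 of the 20 were called after adjustment. The 4 were on Il13ra1 (1427165_at, -0.55 ± 0.23), Jak1 (1433804_at, -0.70 ± 0.27), Jak3 (-0.46 ± 0.17) and Cish (-0.56 ± 0.22), each lower in KO and chosen here after its value was seen.

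The order of group means is described first for 5 of the 9 measured genes, from the levels of 1 probe set each. Cish had WT IL4 vehicle (2.71) and WT IL4 RSG (2.43) on top, then KO IL4 vehicle (1.01) and KO IL4 RSG (0.73), whose arrays overlapped, and the 4 control groups below, from -0.81 to -1.38. Socs1 had the same groups on top, from 1.86 in WT IL4 vehicle to 0.35 in KO IL4 RSG, with WT IL4 RSG and KO IL4 vehicle overlapping. Socs3 had KO IL4 vehicle (1.52) and KO IL4 RSG (1.41) on top with overlapping arrays, and WT IL4 RSG (-2.13) and WT IL4 vehicle (-3.66) at the bottom and apart. Il13ra1 had a similar order, with KO IL4 vehicle (0.92) first and WT IL4 vehicle (-1.10) and WT IL4 RSG (-1.38) last. Jak1 ran the other way, from WT IL4 RSG (0.73) and WT IL4 vehicle (0.62) to KO IL4 RSG (-1.12) and KO IL4 vehicle (-1.20). For the other 4 genes most neighbouring groups overlapped on the probe set taken. Jak3 still had KO IL4 vehicle (0.28) and KO IL4 RSG (0.21) first, and WT IL4 RSG (-0.41) and WT IL4 vehicle (-0.46) last. On 1423996_a_at and 1421034_a_at of Il4ra, WT IL4 RSG (-1.14 and -0.61) and WT IL4 vehicle (-0.43 and -0.47) were the lowest groups. On the probe sets taken for Il4ra (1447858_x_at) and Tyk2 (1432576_at) the arrays of all neighbouring groups overlapped, and for Jak3 and Irs2 those of all but 1 pair of neighbours.

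The other genes of the pathway, 40 genes with 103 probe sets in 6 lists, were counted by the same rule. With IL-4 and vehicle 16 probe sets rose and 13 fell in KO (background 4.25% higher and 7.26% lower), and 19 rose and 10 fell in WT (7.01% and 5.94%). KO against WT with IL-4 and vehicle gave 12 higher and 33 lower (6.94% and 17.3%), and the genotype difference in the IL-4 response 13 higher and 15 lower (4.73% and 9.84%). Their median change was -0.05 in KO and 0.09 in WT, against -0.14 and 0.09 for all probe sets. In control vehicle 2 were called, both of Stat6. Genes named below are each described by the probe set with the largest called change, which was picked from these same data. Further probe sets of several of them, among them Socs2, Socs5, Socs6, Jak2 and Ptpn2, were counted, but their values are not given.

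Of 19 probe sets of the other SOCS genes, 9 were lower and 0 higher in KO than in WT with IL-4 and vehicle (median -1.09, all probe sets -0.25), where 17.3% of all probe sets were called lower and 6.94% higher. Socs2, an inhibitor of growth hormone signalling, followed Cish. On 1418507_s_at it read 0.14, -0.09 and 0.53 in KO IL4 vehicle, -2.06, -2.21 and -1.67 in KO control vehicle, 2.22, 2.18 and 1.87 in WT IL4 vehicle and -1.46, -0.96 and -0.33 in WT control vehicle. IL-4 raised it by 2.18 ± 0.41 in KO and by 3.01 ± 0.41 in WT, and the difference of -0.83 ± 0.58 was not called (adjusted p = 0.406). With RSG the KO change was 1.27 ± 0.41 without a call (0.065), the WT change 4.40 ± 0.41, and the difference -3.13 ± 0.58 was called (0.00152), where in KO control RSG mouse 6 read 0.25 against -1.68 and -1.84 in mice 4 and 5. Without mouse 6 the KO change was 1.99 and called (0.00302).

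Socs6, known for binding the insulin receptor and KIT, went down in KO on the probe set described. On 1452764_at it read -1.18, -0.83 and -1.40 in KO IL4 vehicle, -0.38, -0.13 and -0.02 in KO control vehicle, 1.00, 0.98 and 1.05 in WT IL4 vehicle and 0.25, 0.41 and 0.38 in WT control vehicle. IL-4 lowered it by 0.96 on the log2 scale in KO (change -0.96 ± 0.15) and raised it by 0.66 ± 0.15 in WT, a rise lost without mouse 1, 2 or 3 (adjusted p = 0.0734, 0.05 as rounded and 0.0664) and after quantile normalization (0.0971). The difference was -1.62 ± 0.22 (adjusted p = 5.01e-05). Socs5, an inhibitor of the EGF receptor that has also been tied to IL-4 signalling, differed between genotypes in its IL-4 response with RSG by -1.87 ± 0.44 (0.00888), a call lost without mouse 2 or 3 (0.0565 and 0.0659).

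Jak2, a kinase that can serve the receptor with Il13ra1, rose with IL-4 in both genotypes: by 1.07 ± 0.13 in KO and by 1.38 ± 0.13 in WT with vehicle on 1421066_at. The arrays read 0.27, 0.56 and 0.80 in KO IL4, -0.66, -0.49 and -0.43 in KO control, 1.26, 1.11 and 0.98 in WT IL4 and -0.18, -0.33 and -0.26 in WT control, and the difference of -0.31 ± 0.19 was not called (adjusted p = 0.328). Dok2, an adaptor that recruits a Ras inhibitor, changed by 0.64 ± 0.23 in KO with vehicle without a call (adjusted p = 0.0678; with the replicate block 0.019, called) and rose by 1.94 ± 0.23 in WT with vehicle and by 2.39 ± 0.23 with RSG. The difference with vehicle of -1.30 ± 0.32 was called (0.0091) but not without mouse 2 (0.0698) or after quantile normalization (0.0584). Ptpn2, a phosphatase that acts on JAK1 and JAK3, rose in KO with vehicle by 0.91 ± 0.30 (adjusted p = 0.0471), a call lost with the replicate block (0.0763) and without mouse 1, 2, 4, 5 or 6 (0.0534 to 0.41, with a change of 0.57 without mouse 6). In WT it rose by 1.52 ± 0.30 with vehicle, a call lost without mouse 3 (1.11, 0.0569), and by 2.01 ± 0.30 with RSG.

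**Figure D4:**
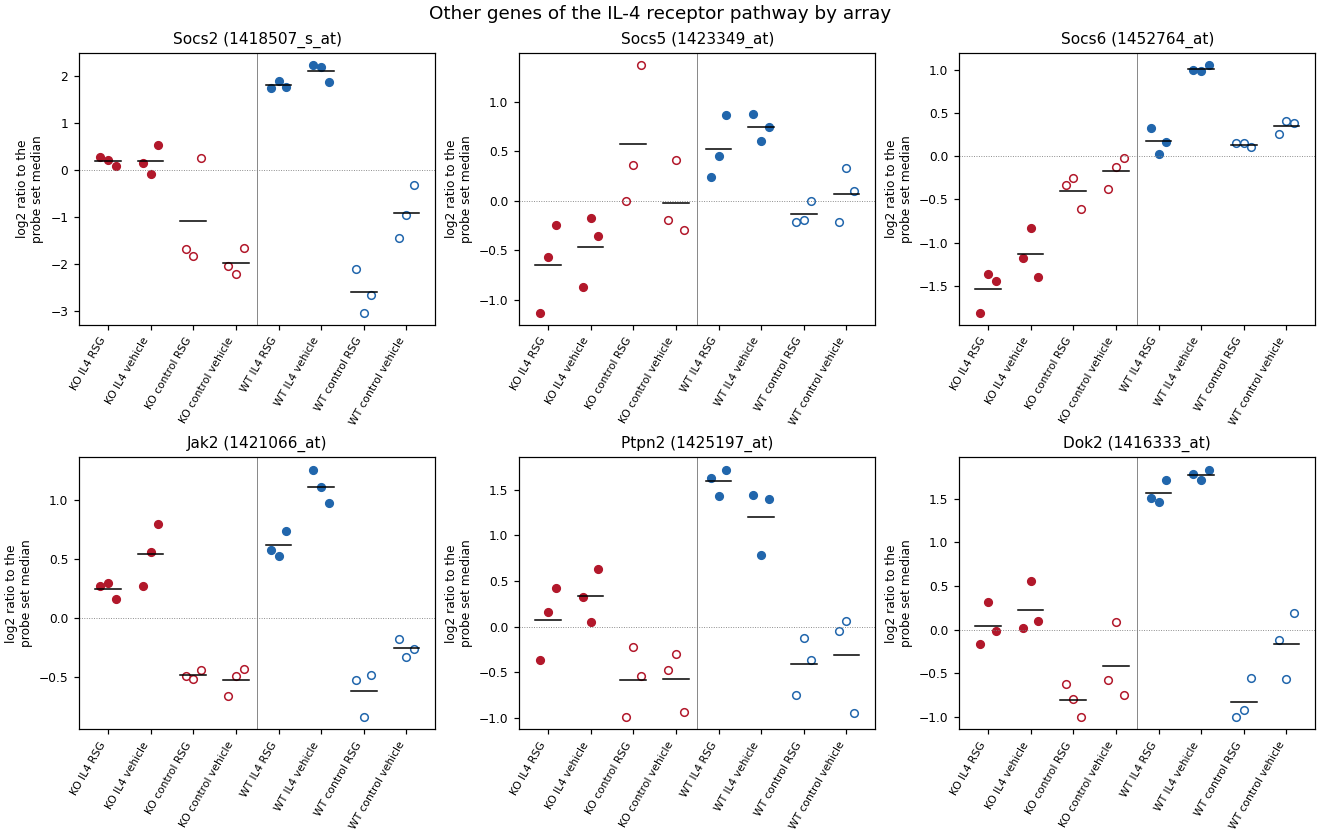
Log2 ratio to the probe set's median (y axis) on each array, by group (x axis), for 6 other genes of the pathway. Points are single arrays, black lines group means, filled points IL-4 and open points control, red KO and blue WT. Among the vehicle arrays, Socs2, Jak2, Ptpn2 and Dok2 are highest on those of WT with IL-4, and Socs6 is lowest on the KO IL-4 arrays (-1.81 to -0.83).

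Of 11 probe sets of the other receptor chains 6 rose and 0 fell with IL-4 and vehicle in KO (background 4.25% higher and 7.26% lower), against 3 and 0 in WT (7.01% and 5.94%). With RSG 4 rose and 0 fell in KO (3.19% and 3.64%). KO against WT with IL-4 and vehicle gave 5 higher and 2 lower (6.94% and 17.3%), and the genotype difference with vehicle 4 higher and 2 lower (4.73% and 9.84%). The ligands Il4 and Il13, with 1 probe set each, were both called higher with IL-4 and vehicle in KO and neither in WT. Il2rb, the IL-2 receptor beta chain, which is also 1 of the lymphocyte markers, rose by 5.63 ± 0.81 in KO, and KO IL4 vehicle was above WT IL4 vehicle by 2.94 ± 0.81 (without mouse 1 by 1.83, adjusted p = 0.0915). Il4 itself was higher in KO than in WT with IL-4 and vehicle by 2.99 ± 0.61: it read 2.15, 1.48 and 1.93 in KO IL4, 0.24, -0.17 and -0.12 in KO control, 0.16, -1.13 and -2.46 in WT IL4 and -0.03, -2.01 and -0.13 in WT control. Its IL-4 change in KO was 1.87 ± 0.61 (adjusted p = 0.0448) and was lost without mouse 2, 4, 5 or 6 (0.0526 to 0.21). Mast cell and basophil markers averaged 5.2 in the same arrays, and their part in the Il4 values was not tested.

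The remaining genes that the naming rule picked were Stat6 (-2.77 ± 0.12, KO against WT with IL-4 and RSG), the STAT inhibitor Pias2 (-1.06 ± 0.23) and the receptor phosphatase Ptprc (1.30 ± 0.28), both KO against WT with IL-4 and vehicle, and the phosphatase Ptpn6 (1.02 ± 0.17, genotype difference with vehicle). Calls that single mice could end were Il2ra (3.40 ± 0.98 in KO, lost without mouse 5 or 6, adjusted p = 0.193 and 0.246), Il9r (2.08 ± 0.62 in WT, lost without mouse 1, 3 or 6, 0.195, 0.192 and 0.0551) and Il13 (genotype difference 2.37 ± 0.78, lost without each of the 6 mice and 1.51 without mouse 3), all with vehicle, and the Il13 call was also lost with the replicate block (0.0773). With RSG they were the adaptor Irs1 (genotype difference -3.12 ± 0.79, lost without mouse 1, 2, 3 or 6 and -1.90 without mouse 6) and the Ras exchange factor Sos1 (KO against WT with IL-4 -2.94 ± 0.93, lost without mouse 1, 2, 3, 5 or 6 and -1.90 without mouse 5).

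The genes whose profile over the 24 arrays was most like that of a member were listed by Pearson's r of log2 ratios, as a description, since all points share the same arrays and groups. Cish was most like Gda (0.979), F10 (0.978) and Serpinb9 (0.976). Socs1 was most like Gzma (0.902), Gda (0.898) and F10 (0.893), so Gda and F10 stand near both. Socs3 was most like Mki67 (0.955), Id1 (0.954) and Cxcl1 (0.949). Il13ra1 was most like Trim59 (0.948), Ifi27l2a (0.944) and Tgfbi (0.942), and Jak1 most like Slk (0.986), Ubxn4 (0.984) and Crebbp (0.977). For Jak3 the highest r was 0.837, with Ly6e, and for Irs2 0.908, with Cox6b1. On the noisy probe sets that the rule took for Il4ra and Tyk2, no gene exceeded 0.764 and 0.761.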

How the data were processed

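Affymetrix mouse arrays measured total RNA of 24 cultures, 1 array each. The authors deposited a single table, in which each value is a linear ratio. By the methods of the study, GC-RMA values were scaled to each array's 50th percentile and divided by each probe set's median over the arrays, and a further division by vehicle controls that the methods name is not carried by the deposited ratios. GCOS and GCRMA are named, without versions, in the submitters' processing notes. Such ratios hide absolute level, so neither a filter on dim probe sets nor a depth could be applied. The deposited ratios ran from 0.01 to 1949.69, from 0.0649 to 7.37 for the members. No arrays were identical (0), and 0 columns were unused.

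The log2 of the deposited ratios was fitted with limma 3.58.1 in R 4.3.3 (lmFit and eBayes, two-sided, without a variance trend, since a ratio is no level) over 45037 probe sets, leaving out 64 Affymetrix controls, with 16 residual and 1.35 prior degrees of freedom. Tables were made with Python 3.11.15 and scipy 1.17.1. The 14 comparisons covered the responses to IL-4 and to RSG, KO against WT, and the genotype difference in the IL-4 response. Probe sets had 1 symbol (34945), several (932) or none listed (9160). All members were named, with values by array at least for the probe set of largest SD. Up to 3 genes per pathway list were named too. They had the largest called change in an IL-4 response, in its genotype difference or in KO against WT, with or without IL-4. Members and lists, markers included, were chosen with earlier results of these data known.

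Arrays that share a number came from 1 mouse, per the labels, and are paired by it. Deviations of same-mouse arrays correlated with a mean r of 0.0106 (-0.0229 to 0.0462) in 36 pairs, and the replicate block used the mouse within genotype, or as a random block for KO against WT (consensus correlation 0.0114). Tested on simulated data for the IL-4 response in WT with vehicle over 45037 probe sets, with 50 probe sets altered at each size, the fit called 8% at 1.5-fold, 38% at 2-fold, 44% at 4-fold and 68% at 8-fold, and 2 of 81 calls were false. In the real comparison a larger share was called, 7.01% higher and 5.94% lower. Because the adjusted p depends on that share, the simulated rates need not hold for it. The 15 alternatives were a variance trend, quantile normalization, centring each array on its median, testing only the 38889 probe sets with a median of 1 (within 0.001), leaving out 2 stromal-high arrays (KO control RSG of mouse 6, WT control vehicle of mouse 2), leaving out the WT control vehicle array of mouse 3, leaving out each of 6 mice, fits on the compared arrays alone, the methods' t-test on log2 ratios (for comparisons of 2 groups) and the replicate block.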

Additional observations from a re-analysis of the deposited data

Results flagged for a closer look

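The IL-4 response differed between KO and WT, by the test of the difference itself, for 22 of the 40 results of the 20 probe sets with vehicle and with RSG. Of all probe sets, 4.73% were called higher and 9.84% lower with vehicle, and 3.69% and 7.5% with RSG. Probe sets of the same gene and both arms count separately here. Each value below is the KO change minus the WT change on the log2 scale, from limma.

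On Socs3 the difference was 5.66 with vehicle and 3.12 with RSG (1416576_at), 3.04 and 2.32 (1455899_x_at), and 2.74 and 2.33 (1456212_x_at). On Il13ra1 it was 2.13 and 1.55 (1427164_at), 1.73 and 1.08 (1451775_s_at), 1.72 and 1.25 (1454783_at), and 2.81 with vehicle (1427165_at). On Jak3 it was 1.20 with vehicle and 0.78 with RSG. On Il4ra it was 0.77 and 0.75 (1421034_a_at) and 1.47 with RSG (1423996_a_at). It was negative on Cish, at -1.14 with vehicle and -1.71 with RSG, and on Jak1, at -0.61 with vehicle (1433805_at) and -0.70 with RSG (1433803_at). Of the 11 calls with vehicle 8, and of the 11 with RSG 2, were kept under each of the 14 alternatives run for them.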

How the results depend on the processing

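Of 79 calls on member probe sets, 41 were kept under every alternative run, among them 11 of 13 and 10 of 12 for KO against WT with IL-4 (vehicle and RSG). For the IL-4 response 1 of 7 was kept in KO and 6 of 12 in WT with vehicle, and 0 of 2 and 3 of 10 with RSG. The count for KO with vehicle was 3 on the compared arrays alone and 3 by the methods' t-test, and 1 to 5 without single mice. For KO with RSG it was 5 without the stromal-high arrays, 1 on the compared arrays and 0 by the t-test, and 1 to 5 without single mice. For WT with RSG it was 6 by the t-test and 6 to 11 without single mice, and for the genotype difference with RSG 2 on the compared arrays and 3 to 10 without single mice. The single RSG call in KO with IL-4 was lost (0) after quantile normalization, on the compared arrays and by the t-test, and without single mice the count was 0 to 1. In WT with IL-4 it was 1 without the stromal-high arrays and 0 to 1 without single mice. With the replicate block the counts were 8 and 2 for the IL-4 response in KO and 12 and 11 in WT (vehicle and RSG), and 12 and 10 for the genotype difference. Its call changes on members were the losses of Socs3 in KO with vehicle (1416576_at) and of the Jak3 difference with RSG, and gains of Socs3 in KO with vehicle (1455899_x_at, 1456212_x_at), of Socs3 in WT with RSG (1455899_x_at) and of the Jak1 difference with vehicle (1433804_at, adjusted p = 0.047). Among the named results over members and other genes, 36 lost their call on the compared arrays alone, 25 by the t-test and 15 after quantile normalization, against 4 with centred arrays and 0 with a variance trend. Uncalled changes that turned their sign were those of Il4ra in KO with RSG (1423996_a_at 0.05 after quantile normalization, 0.05 with centred arrays, 0.11 without the stromal-high arrays and -0.21 to 0.12 without single mice, 1421034_a_at -0.13 to 0.22), of Irs2 in KO with RSG (-0.05 to 0.38 without single mice), of the Irs2 genotype difference with RSG (0.08 after quantile normalization, 0.05 with centred arrays, -0.23 to 0.21 without single mice), of Irs2 for KO against WT with IL-4 and RSG (0.01 after quantile normalization) and of the Socs1 genotype difference (without the stromal-high arrays 0.38 with vehicle and 0.74 with RSG, without single mice -1.47 to 0.41 and -0.76 to 0.60). The cause was not tested. The number of arrays, not depth, limits the precision.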
